A study of Drosophila melanogaster with 4 samples.

Results

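Odorant-binding proteins are the small secreted carrier proteins of insect sense organs, and their genes were followed here in the heads of flies that express a toxic polyglutamine protein. The deposited table holds 52 of these genes among 15682 in all. They are the rows whose FlyBase symbol is Obp followed by a number, and lush, the gene also known for its pheromone carrier. Values were high enough to be tested for 27 of the 52, against 9049 genes tested in the whole table. Its members were taken by symbol and not by their values, though earlier results of these data were known.

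Poly(A) RNA came from heads of Drosophila melanogaster in 4 libraries, 2 from flies expressing MJDtr-78Q and 2 from flies of the w1118 strain that do not express it. MJDtr-78Q is a truncated human ataxin-3 with an expanded polyglutamine tract, used to model Machado-Joseph disease. Neither the promoter that drives it, nor the age and sex of the flies, nor any driver carried by w1118 flies is named in the labels. No label ties a library to its own batch of flies, so the p-values cover the spread of these 4 samples, and that spread may be technical. In whole heads, fewer cells of a type and less RNA per cell cannot be told apart.

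The classical odorant-binding proteins are made by support cells around sensory neurons, which secrete them into the fluid that bathes the neurons' dendrites. In the antenna and maxillary palp the proteins bind volatile ligands, and in the taste hairs of the proboscis and legs they meet soluble ones. Some members are made elsewhere, in fat body, glia or the male reproductive tract. Many of the genes lie in tandem clusters, and the number in a symbol gives the chromosome band.

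Back-transformed library totals were 3111583 and 3111393 counts in MJDtr-78Q and 7147867 and 7147717 in w1118, so the totals nearly coincided within each group. Deposited values ran lower in MJDtr-78Q (median difference -1.24 for tested genes), so the 4 libraries were quantile normalized together. All levels below are log2(count + 1) after that step, unless another scale is named, and all differences are MJDtr-78Q minus w1118 on that scale, with n = 2 per group. The deposited table names no genome build, and positions are printed as it gives them. Neuronal markers fitted the labelled tissue, with elav at 9.05 and 8.73 in MJDtr-78Q and at 8.72 and 8.69 in w1118 libraries. Summed counts of the 4 neuronal markers were 14184 and 6682 in MJDtr-78Q and 10018 and 7436 in w1118 libraries. The synapse gene brp was at 10.93 and 8.64 in MJDtr-78Q and at 9.81 and 9.23 in w1118 libraries. MJDtr-78Q library 1 was the highest for both and library 2 the lowest, and the part of this in the differences of the odorant-binding protein genes was not tested. Male accessory gland genes, which would mark the male reproductive tract and no other body tissue, had 0 of 14 members tested. They summed to at most 6.20 counts in any library.

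The family was unevenly expressed in the head. Of the 52 genes, 14 were listed at 0 in every library. They were Obp22a, Obp46a, Obp47b, the 5 genes Obp50a to Obp50e, Obp51a, Obp56i, Obp57d, Obp58d, Obp85a and Obp93a. A further 11 had values but too few to test. Among these, Obp19a was nearest the filter, with a mean of 6.83 counts, below the minimum mean of 10, while Obp56f, the lowest tested member, had 12.5. Known antennal genes are in this low set. Obp59a, needed for humidity sensing, was listed at 0 in both MJDtr-78Q libraries and was at 1.66 and 0.90 in w1118 libraries. Obp84a lay between 1.198 and 2.02, and Obp69a between 2.17 and 3.49, over the 4 libraries. Obp57e, a gene of leg taste hairs, was listed at 0 in both MJDtr-78Q libraries, against 2.24 and 3.18 in w1118 libraries. MJDtr-78Q libraries have the lower deposited totals, and the part of depth in these zeros was not tested. No fold was computed for these genes.

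A few members carried most of the family's RNA. As a share of all normalized counts, the 52 genes made up 0.307% and 0.506% of the MJDtr-78Q libraries and 0.464% and 0.617% of the w1118 libraries. The groups overlap in this share. The same 5 genes, Obp44a, Obp99c, Obp19d, Obp56d and Obp56e, held 83.3% and 80.0% of the family's counts in MJDtr-78Q and 76.4% and 73.9% in w1118 libraries. Per kb of exon, the mean normalized count in MJDtr-78Q heads was 5489 for Obp44a, 4657 for Obp99c, 3425 for Obp56e, 2492 for Obp19d and 2147 for Obp56d. In w1118 heads it was 5489 for Obp56e, 4370 for Obp99c, 4319 for Obp56d, 4262 for Obp19d and 4244 for Obp44a. The exonic lengths come from another annotation than the deposited positions, and for Obp44a and Obp56d they exceed the deposited span. Ranks per kb therefore depend on the lengths used. At these lengths the 5 genes overlapped in level per kb in w1118 libraries. In MJDtr-78Q libraries, Obp44a at 4763 and 6216 lay above Obp56e at 2438 and 4411, Obp19d at 1558 and 3426 and Obp56d at 1505 and 2788, and overlapped Obp99c at 3779 and 5534.

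**Figure D1:**
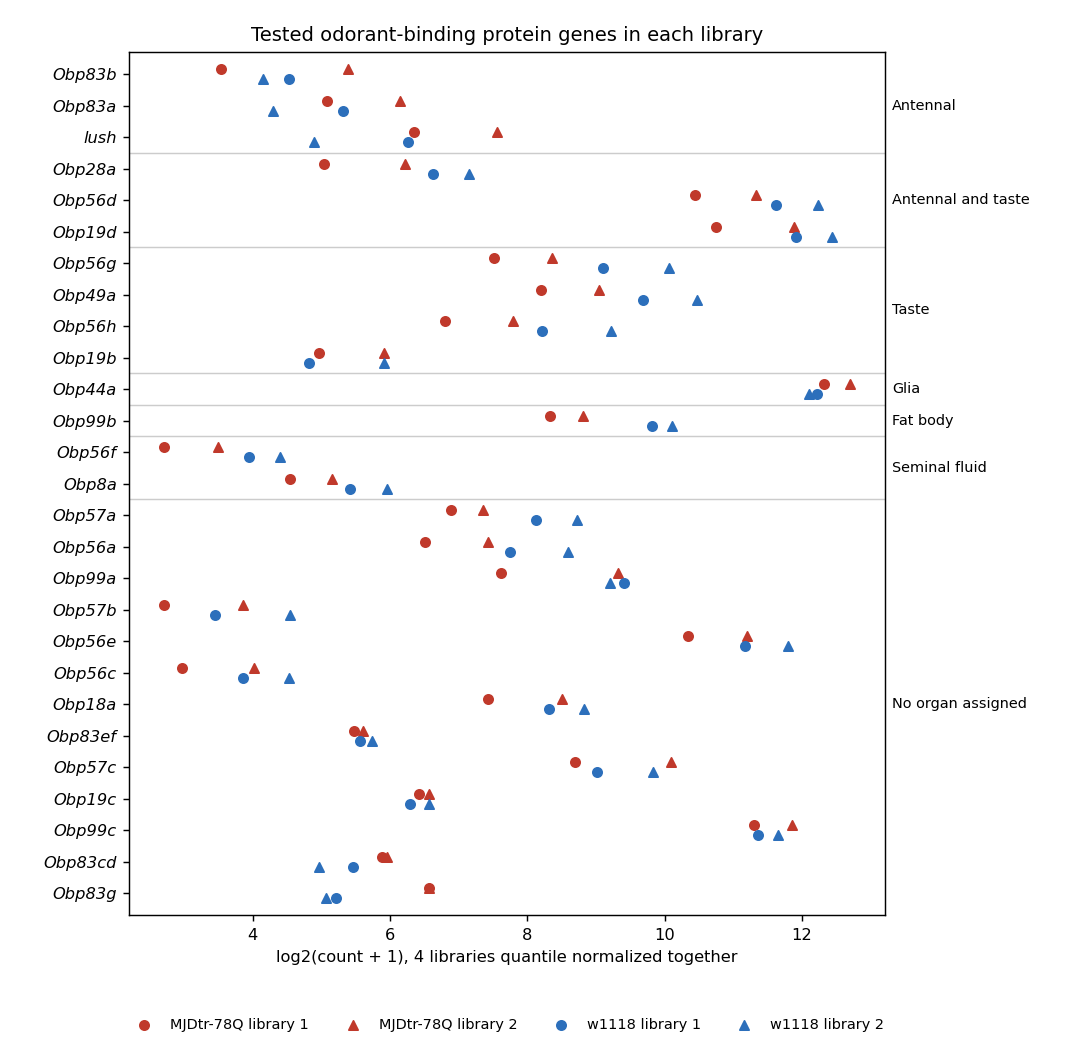
Level of each of the 27 tested genes in each library, as log2(count + 1) after quantile normalization of the 4 libraries together (horizontal axis), grouped by organ of expression. Red marks are MJDtr-78Q and blue marks w1118, with circles for library 1 and triangles for library 2; 11 genes have both red marks left of both blue marks and 4 have them to the right.

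The comparison of MJDtr-78Q with w1118 asks which of these transcripts differ when the polyglutamine protein is present. Among the 27 members 0 passed once p was adjusted over all genes, their lowest adjusted p being 0.595 by limma, and 0% of the 9049 genes did. At an unadjusted p under 0.05, 7 members were lower in MJDtr-78Q, where 2.42% of all tested genes were, and 1 member was higher, where 3.46% were. Both MJDtr-78Q libraries lay below both w1118 libraries for 11 members, against 15.5% of all tested genes. They lay above for 4 members, against 14.0%. The median difference was -0.71 over the 27 members, of which 18 were below 0, and -0.024 over all tested genes, of which 53.4% were below 0. At least 2-fold lower were 9 members, against 2.5% of all tested genes, and at least 2-fold higher were 2, against 3.38%. Without Obp56f and Obp57b, which reached the minimum mean through the w1118 libraries alone, 16 of 25 members were below 0, 10 lay below without overlap, 8 were at least 2-fold lower and the median was -0.70.

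The size of the family's median rested on which MJDtr-78Q library was used. Leaving out MJDtr-78Q library 1 gave -0.15 and leaving out library 2 gave -1.15, while leaving out w1118 library 1 or 2 gave -1.02 or -0.36. All 27 members were lower in MJDtr-78Q library 1 than in MJDtr-78Q library 2, a direction that 53.6% of all tested genes shared. In w1118, 20 of the 27 were lower in library 1, against 51.5% of all tested genes. The 7 others were lush, Obp83a, Obp83b, Obp83cd, Obp83g, Obp44a and Obp99a. The median gap between libraries 2 and 1 was 0.89 in MJDtr-78Q and 0.52 in w1118 over the members, against 0.071 and 0.018 over all tested genes.

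**Figure D2:**
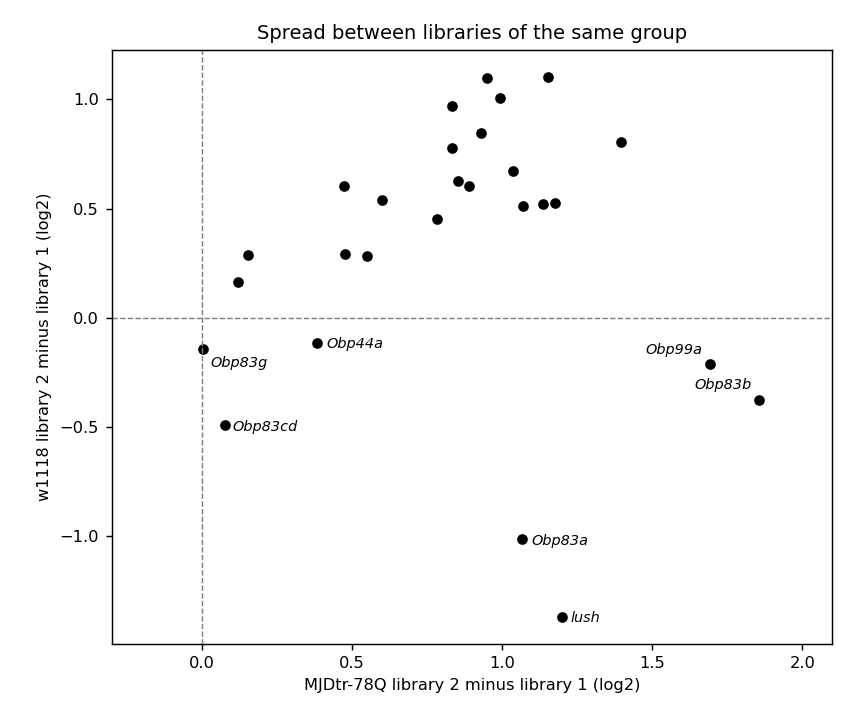
Gap between the 2 libraries of a group for each of the 27 tested genes, in log2 units, with MJDtr-78Q on the horizontal and w1118 on the vertical axis. Every point lies right of 0, so each gene was lower in MJDtr-78Q library 1 than in library 2, and the 7 named genes lie below 0 in w1118.

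Short transcripts behaved differently from others in these libraries, and the members are short. Exonic lengths of the tested members ran from 495 to 1101 bp with a median of 645 bp, against a median of 2163 bp over all tested genes. The 1349 tested genes in that length range had a median difference of -0.16, which became 0.24 when MJDtr-78Q library 1 was left out and -0.54 when library 2 was. Of these genes, members included, 68.4% were below 0, so the members' 18 of 27, or 66.7%, was near the share of genes of their length. In the same range 12.8% had both MJDtr-78Q libraries below both w1118 libraries and 4.74% were at least 2-fold lower. Once each library was corrected for exonic length, the members' median was -0.62, with 17 of 27 below 0.

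The 3 most negative differences of the family were those of genes of taste organs. The list holds 6 genes, of which 4 were tested. Of these, 3 had both MJDtr-78Q libraries below both w1118 libraries, against 15.5% of all tested genes. Obp56g (FBgn0034474, 2R, positions 15670988 to 15671525), expressed in taste hairs of the proboscis, was at 7.52 and 8.36 in MJDtr-78Q libraries and at 9.10 and 10.07 in w1118 libraries. The groups did not overlap, and library 1 was the lower in each. It averaged 7.94 ± 0.59 in MJDtr-78Q and 9.58 ± 0.69 in w1118 (SD, n = 2 each), which is a difference of -1.65 (SE 0.46), or 3.13 times lower (limma unadjusted p = 0.0173, adjusted p = 0.66).

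Obp49a (FBgn0050052, 2R, positions 8577563 to 8578460) encodes a carrier of bitter compounds that dampens the response of sugar-sensing neurons. It was at 8.21 and 9.04 in MJDtr-78Q libraries, against 9.69 and 10.47 in w1118 libraries. Every MJDtr-78Q value was below every w1118 value, and the difference was -1.46 (SE 0.43, limma adjusted p = 0.689). Obp56h, whose loss is known to alter cuticular hydrocarbons and mating in males, was at 6.80 and 7.79 in MJDtr-78Q and at 8.22 and 9.23 in w1118 libraries. Its difference was -1.43 (SE 0.50, limma adjusted p = 0.798). Obp19b, a gene of proboscis taste hairs, stood apart from these 3. It was at 4.97 and 5.92 in MJDtr-78Q and at 4.82 and 5.92 in w1118 libraries, so the difference was 0.075 (95% interval -1.32 to 1.47). With TMM or upper-quartile scaling its sign turned to below 0, at -0.012 and -0.018.

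The 3 genes known from both antenna and taste organs were all tested. In each, both MJDtr-78Q libraries lay below both w1118 libraries, against 15.5% of all tested genes. Obp28a (FBgn0011283, 2L, positions 7496790 to 7497365), an abundant carrier of olfactory sensilla, was at 5.04 and 6.22 in MJDtr-78Q libraries and at 6.62 and 7.15 in w1118 libraries. Its difference was -1.26 (SE 0.47, limma adjusted p = 0.838). Obp56d was at 10.44 and 11.33 in MJDtr-78Q and at 11.63 and 12.23 in w1118 libraries, a difference of -1.04 (SE 0.41). For Obp19d the levels were 10.75 and 11.88 in MJDtr-78Q and 11.91 and 12.43 in w1118 libraries, so the groups nearly met, with a difference of -0.86 (SE 0.45). With MJDtr-78Q library 1 left out the 3 differences were -0.67 for Obp28a, -0.59 for Obp56d and -0.28 for Obp19d. With library 2 left out they were -1.85, -1.49 and -1.42.

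The tested antennal genes did not share that direction. Of 7 in the list, 3 were tested, and all 3 had differences above 0. Those too low to test did not follow these 3. Obp19a was at 1.198 and 3.25 in MJDtr-78Q and at 3.31 and 3.26 in w1118 libraries. Obp59a also lay below in both MJDtr-78Q libraries, and for Obp69a and Obp84a the groups overlapped. The gene lush (FBgn0020277, 3L, positions 19597497 to 19599190) encodes the carrier needed for detection of the male pheromone cis-vaccenyl acetate. It was at 6.35 and 7.55 in MJDtr-78Q and at 6.26 and 4.89 in w1118 libraries, so the groups were separated by less than the gap within either of them. The difference of 1.38 had a 95% interval from -0.25 to 3.004 (limma adjusted p = 0.948).

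Obp83a and Obp83b are neighbouring genes of trichoid sensilla, the antennal hairs that hold pheromone-sensing neurons. Obp83a was at 5.08 and 6.15 in MJDtr-78Q and at 5.31 and 4.30 in w1118 libraries, a difference of 0.81 (SE 0.55). For Obp83b the levels were 3.53 and 5.39 in MJDtr-78Q and 4.53 and 4.15 in w1118 libraries, a difference of 0.12 (SE 0.70). Both groups overlapped for each gene. All 3 tested antennal genes were lower in MJDtr-78Q library 1 than in library 2 and higher in w1118 library 1 than in library 2. Obp83b had no stable sign, at 1.07 with MJDtr-78Q library 1 left out and -0.81 with library 2 left out.

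**Figure D3:**
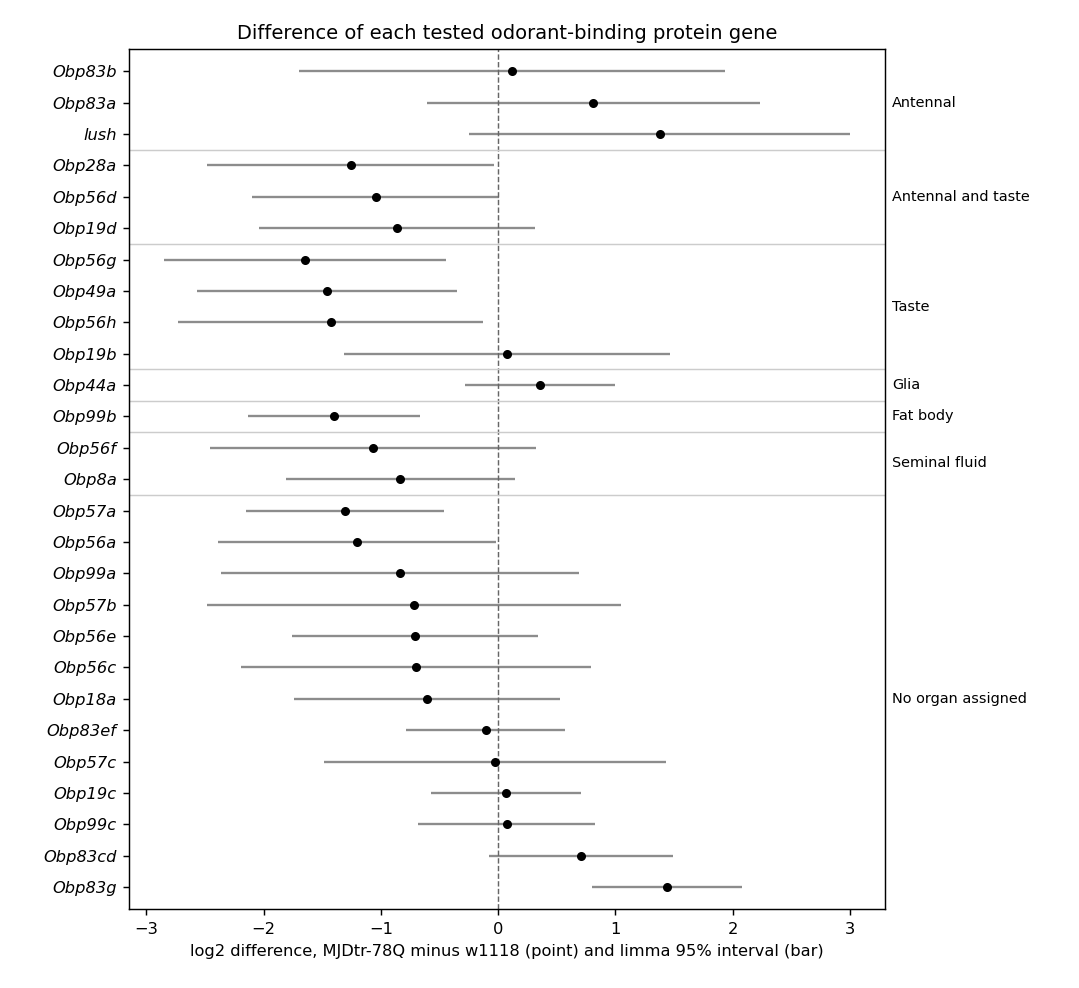
Difference of each of the 27 tested genes, MJDtr-78Q minus w1118 in log2 units (points), with 95% intervals from limma (bars), grouped by organ of expression. The 3 antennal genes are at or above 0.12, while the 3 genes of antenna and taste organs are between -1.26 and -0.86.

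Members made outside the sense organs went different ways. Obp44a (FBgn0033268, 2R, positions 4021874 to 4022588), abundant in glia of the nervous system, was at 12.32 and 12.71 in MJDtr-78Q and at 12.21 and 12.10 in w1118 libraries. Both MJDtr-78Q libraries were the higher ones, with a difference of 0.36 (95% interval -0.28 to 0.998, limma adjusted p = 1). The 10 glial markers had a median difference of 0.15, with 6 above 0. The glial transcription factor gene repo was at 8.06 and 7.55 in MJDtr-78Q and at 8.12 and 8.204 in w1118 libraries. Summed glial marker counts were 24504 and 19271 in MJDtr-78Q and 22067 and 19525 in w1118 libraries, and the groups overlap.

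Obp99b (FBgn0039685, 3R, positions 25541975 to 25542618), known from the fat body of male heads, was at 8.33 and 8.81 in MJDtr-78Q libraries and at 9.82 and 10.11 in w1118 libraries. The gap between the groups exceeded the gap within either, and the difference was -1.40 (SE 0.28), or 2.64 times lower (limma unadjusted p = 0.00466, adjusted p = 0.607). It was -1.16 with MJDtr-78Q library 1 left out and -1.64 with library 2 left out. Of the fat body markers, 7 of 8 were above 0, with a median of 0.45, or 0.26 without MJDtr-78Q library 1 and 0.79 without library 2. The largest differences were those of Fbp2 (1.96), Fbp1 (1.75), Lsp1gamma (1.66) and Lsp2 (0.76, with overlap). The rest lay between -0.10 and 0.13. The storage protein gene Lsp1gamma was at 5.69 and 6.15 in MJDtr-78Q and at 4.65 and 3.86 in w1118 libraries. Summed fat body marker counts were 23932 and 19685 in MJDtr-78Q and 21597 and 18425 in w1118 libraries, and the groups overlap.

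Transcripts that depend on sex were spread unevenly over the libraries. Of the 4 female transcripts, 3 were below 0, with a median of -0.28, or 0.064 without MJDtr-78Q library 1 and -0.70 without library 2. The gene fit, expressed in female fat body, was at 8.78 and 9.79 in MJDtr-78Q and at 10.27 and 9.64 in w1118 libraries, a difference of -0.67 (SE 0.44). The yolk protein gene Yp3 was at 14.31 and 15.26 in MJDtr-78Q and at 15.18 and 15.18 in w1118 libraries, a difference of -0.39 (SE 0.36). Its w1118 values coincide, as values of equal rank do after quantile normalization. MJDtr-78Q library 1 was the lowest for both genes, and the groups overlap. The male dosage compensation RNA roX1 was at 10.04 and 9.35 in MJDtr-78Q and at 9.95 and 9.75 in w1118 libraries, a difference of -0.16 (SE 0.32). Another yolk protein gene, Yp1, was at 15.54 and 15.54 in MJDtr-78Q and at 15.54 and 15.40 in w1118 libraries, where quantile normalization fixes the value of the top gene. The part of sex ratio in the Obp99b difference was not tested.

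Of the 5 members in the seminal fluid list, 3 were listed at 0 everywhere and 2 were tested. The organ lists share no member, so a list may leave out genes also made in its organ. Obp8a was at 4.55 and 5.15 in MJDtr-78Q and at 5.42 and 5.96 in w1118 libraries, a difference of -0.83 (SE 0.38). Obp56f was at 2.71 and 3.49 in MJDtr-78Q and at 3.94 and 4.39 in w1118 libraries, a difference of -1.07 (SE 0.54). Groups did not overlap for either gene, and neither passed the test (limma adjusted p = 0.948 and adjusted p = 1). Obp56f and Obp57b reached the minimum mean through the w1118 libraries alone, a filter that favours differences below 0.

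By cluster, all 7 tested members of the 56 group on 2R were below 0, against 53.4% of all tested genes and 68.4% of those in the members' length range. The group holds 9 genes between positions 15585227 and 15756219. Of those tested, 5 had both MJDtr-78Q libraries below both w1118 libraries, against 15.5% of all tested genes and 12.8% in the length range. The median of the tested members was -1.07. Without Obp56f, which passed the filter through w1118 alone, these were 6 of 6 below 0, 4 without overlap and a median of -1.12. Besides those given above, Obp56a was at 6.50 and 7.43 in MJDtr-78Q and at 7.75 and 8.59 in w1118 libraries, a difference of -1.201 (SE 0.46). Obp56e had the highest mean per kb of them at the exonic lengths used. It was at 10.34 and 11.197 in MJDtr-78Q and at 11.16 and 11.79 in w1118 libraries, a difference of -0.71 (SE 0.40). Obp56c differed by -0.70 (SE 0.58). With MJDtr-78Q library 1 left out the median of the 7 was -0.68, and with library 2 left out it was -1.49. The receptor gene Toll-7, the only other tested gene inside this span, differed by 0.39.

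In the 57 group the neighbours parted. Obp57a (FBgn0043535, 2R, positions 16392671 to 16393265) was at 6.89 and 7.36 in MJDtr-78Q and at 8.13 and 8.73 in w1118 libraries, with no overlap and a difference of -1.31 (SE 0.33, limma adjusted p = 0.628). Obp57c was at 8.70 and 10.09 in MJDtr-78Q and at 9.02 and 9.83 in w1118 libraries, and differed by -0.028 (95% interval -1.48 to 1.43). Obp57b differed by -0.72 (SE 0.68). Obp57b and Obp57c overlap in the deposited coordinates and are annotated on the same strand. Reads could thus be split between them, and both values are uncertain.

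The 83 group on 3R went the other way, with a median of 0.71 over its 5 members, 4 of them above 0. Obp83g (FBgn0046875, 3R, positions 1937391 to 1938019) had the lowest p of the family. It was at 6.57 and 6.58 in MJDtr-78Q libraries and at 5.21 and 5.07 in w1118 libraries, so the libraries of each group nearly coincided and the groups stood well apart. The difference was 1.44 (SE 0.25), or 2.71 times higher, with a 95% interval of 0.80 to 2.08 (limma unadjusted p = 0.00233, adjusted p = 0.595). With each library left out in turn it stayed between 1.37 and 1.51.

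Its neighbour Obp83cd was at 5.88 and 5.96 in MJDtr-78Q and at 5.46 and 4.96 in w1118 libraries, a difference of 0.71 (SE 0.30, limma adjusted p = 0.911). Between them lies Obp83ef, at 5.48 and 5.605 in MJDtr-78Q and at 5.57 and 5.73 in w1118 libraries, so it differed by -0.11 (95% interval -0.79 to 0.57). Obp83cd and Obp83ef overlap in the deposited coordinates and are annotated on opposite strands. The kit marks strand, but no label says how counting used strand, so reads of the overlap may not be separated. The same limit holds for Obp44a and Obp99c, each of which overlaps a gene annotated on the opposite strand.

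The 99 group and the 19 group were mixed. Obp99a was at 7.62 and 9.32 in MJDtr-78Q and at 9.41 and 9.20 in w1118 libraries. MJDtr-78Q library 1 alone was low, and the difference of -0.84 (SE 0.59) became 0.011 without it and -1.67 with library 2 left out. Obp99c, among the most abundant members, was at 11.30 and 11.85 in MJDtr-78Q and at 11.36 and 11.65 in w1118 libraries, so it differed by 0.073 (95% interval -0.68 to 0.83). Obp99b thus differed by -1.40 in the same cluster, and the difference between these neighbours was not tested.

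On the X, Obp19c was at 6.42 and 6.58 in MJDtr-78Q and at 6.29 and 6.58 in w1118 libraries. Its 95% interval of -0.57 to 0.71 stays short of a 2-fold change, and its difference of 0.067 turned to -0.019 with TMM and -0.025 with upper-quartile scaling. Obp18a, which is outside the clusters, was at 7.44 and 8.51 in MJDtr-78Q and at 8.32 and 8.83 in w1118 libraries, a difference of -0.61 (SE 0.44).

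**Figure D4:**
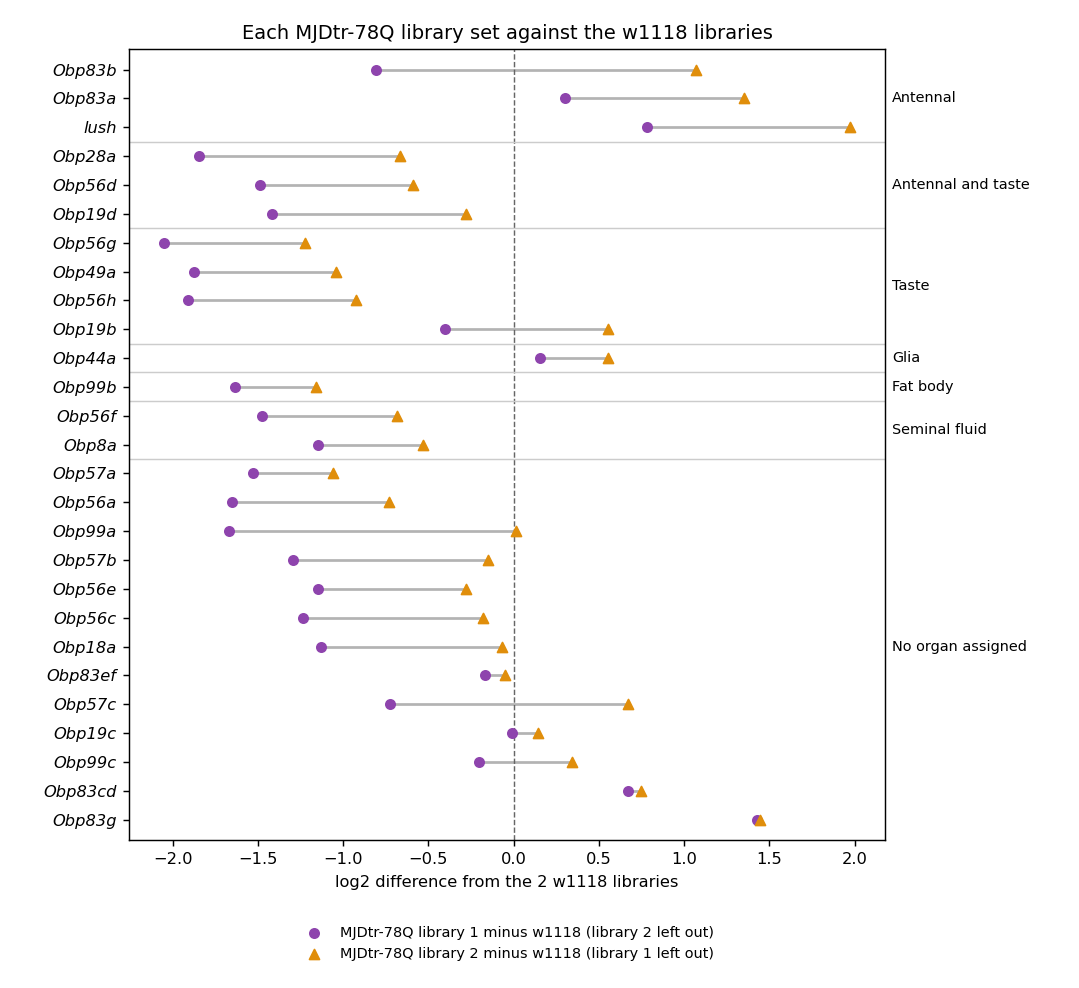
Each MJDtr-78Q library set against the 2 w1118 libraries, in log2 units, for the 27 tested genes. Purple circles stand for MJDtr-78Q library 1 and orange triangles for library 2; Obp83g is at 1.43 and 1.44, while Obp99a is at -1.67 and 0.011.

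Other genes known from the chemosensory organs were read beside the family. Of 13 in the table, 8 were tested, 7 were below 0, against 53.4% of all tested genes, and 6 had both MJDtr-78Q libraries below both w1118 libraries, against 15.5%. Their median was -0.85, or -0.60 and -1.15 with MJDtr-78Q library 1 or 2 left out, and 0 passed over all genes (limma). Summed counts of the list were 971 and 1462 in MJDtr-78Q and 2096 and 2303 in w1118 libraries, without overlap. Most of each sum came from a single gene, Est-6, at 9.66 and 10.30 in MJDtr-78Q and at 10.76 and 10.90 in w1118 libraries. The membrane protein gene Snmp2 was at 5.92 and 5.44 in MJDtr-78Q and at 6.94 and 7.08 in w1118 libraries. For nompA, a gene of the support cells that sheathe sensory dendrites, the levels were 3.73 and 4.55 in MJDtr-78Q and 4.65 and 5.34 in w1118 libraries. Snmp1, needed with lush for pheromone detection, was at 5.65 and 5.96 in MJDtr-78Q and at 6.49 and 6.75 in w1118 libraries, a difference of -0.82 (SE 0.26). The odorant co-receptor gene Orco differed by -0.61 (SE 0.52). Differences were largest for Ir76b, at -2.41 (SE 0.51), and Ir25a, at -1.89 (SE 0.35). Ir76b reached the minimum mean through the w1118 libraries alone. Os-C was the only tested gene of the list above 0, at 0.18 (SE 0.60). Not tested for low values were a5, Gr21a, Gr63a, Ir8a and Ir93a. The part of the amount of sense organ tissue in the differences of the odorant-binding protein genes was not tested.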

How the data were processed

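The 4 head libraries, 2 of MJDtr-78Q and 2 of w1118 flies, were made from poly(A) RNA with the Illumina Truseq Stranded kit, per the labels' protocols. The submitters' processing notes list HTSeq 0.6.1, Bowtie, TopHat2 2.0.10, cutadapt 1.2.1 and CASAVA 1.8.2 with no roles. For 15682 genes the authors deposited log2(count + 1), as judged from the values, which have nearly the same distribution within a group, apart from the number of genes at 0 (5069 and 5151 in MJDtr-78Q, 4179 and 4756 in w1118), but not between groups. Counting error per gene is therefore unknown.

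The 4 libraries were quantile normalized together, and genes with a back-transformed mean of at least 10 entered a two-sided limma test (limma 3.58.1, R 4.3.3) whose variance prior followed intensity, adjusted by Benjamini-Hochberg over all tested genes at 0.05. Symbols matched 15002 IDs and not the other 680. Strands and exonic lengths were taken by gene ID from Ensembl, without its coordinates. The lengths served the length correction (loess, span 0.5) and the values per kb. Intervals are limma's 95% intervals. The fit was tested on simulated data. All tested members could be named, and up to 4 tested genes of each other list by increasing p plus markers at 0. The genes repo, nompA, Orco, Est-6 and Os-C were chosen after their values were seen. The members and lists were chosen with earlier results of these data known, and organ groups come from general knowledge. Alternatives were other scalings, pseudocounts (0.5, 5), filters (none, mean of at least 50), other variance priors, the replicate number as a block, length correction and each library left out.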

Additional observations from a re-analysis of the deposited data

How the results depend on the processing

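The count of odorant-binding protein genes past the threshold was 0 in the fit as reported and under TMM, upper-quartile, pseudocount, filter, prior, length and left-out-library alternatives. It was 19 on the authors' own scaling, which does not align the groups, where the count over all genes was 6794 and the members' median -1.84, with 24 members without overlap, or 88.9%, against 90.6% of all tested genes. Relative to the median of all tested genes, Obp57c alone changed sign with TMM, upper-quartile or no scaling. With the replicate number as a block, 9 members passed, 8 lower (1.75% of all tested genes) and 1 higher (2.53%), and 387 genes in all. With the block and length correction 13 passed, 10 lower (3.92%) and 3 higher (4.83%), and 756 in all. No label makes a number mean a shared batch. Over all tested genes the deviations of same-numbered libraries had r = 0.54, and over the tested members r = 0.017. In both groups 20 of 27 members were lower in library 1. All 27 were lower in MJDtr-78Q library 1, so that count is the w1118 count alone. Length correction alone gave 6 genes in all and 0 members.

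With each library left out in turn, members called stayed at 0, all genes called ran from 0 to 3, the members' median from -1.15 to -0.15, and members without overlap from 18 to 24, where 1 library faces 2 and the share of all tested genes without overlap ran from 39.7% to 87.9%. Without MJDtr-78Q library 1 these were 70.4% of members and 75.5% of all tested genes. The sign stayed the same for 21 members, 16 below and 5 above 0. It turned for Obp19b (-0.47 to 0.62), Obp19c (-0.0782 to 0.21), Obp57c (-0.72 to 0.67), Obp83b (-0.81 to 1.07), Obp99a (-1.67 to 0.0111) and Obp99c (-0.20 to 0.34).

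Other signs turned as follows. Obp19b was at -0.0123 with TMM and -0.0184 with upper-quartile scaling, and Obp19c at -0.0187 and -0.0249. Obp57c was at 0.11 with length correction, with or without the block. On the authors' scaling Obp19b was at -1.18, Obp19c at -1.20, Obp44a at -0.80, Obp83a at -0.42, Obp83b at -1.05, Obp83cd at -0.56 and Obp99c at -1.15, where all genes have a median of -1.24. The cause was not tested where none is given. With 2 libraries a group, intervals of single members span up to 3.63 log2 units.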

Other observations

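Of the other soluble chemosensory carriers, the chemosensory protein genes were read beside the odorant-binding protein genes. All 4 were tested, with a median difference of -0.10. Without overlap between groups were 0 of them, against 29.5% of all tested genes. EbpIII, the most abundant of them, was at 12.25 and 12.73 in MJDtr-78Q and at 12.60 and 12.78 in w1118 libraries, a difference of -0.20 (SE 0.26). The antennal gene a10 was at 3.73 and 4.97 in MJDtr-78Q and at 4.45 and 3.86 in w1118 libraries. Whether this family differs from the odorant-binding protein genes was not tested.

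The CheA and CheB genes, a family of small secreted proteins of taste hairs, were mostly too low to test, with 4 of 20 tested and 5 listed at 0 in every library. CheA7a was at 5.69 and 6.002 in MJDtr-78Q and at 4.72 and 5.34 in w1118 libraries, a difference of 0.82 (SE 0.34), and CheB42c differed by -0.74 (SE 0.37). Neither passed the test (limma adjusted p = 0.904 and adjusted p = 1).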
